A study of Homo sapiens with 12 samples.

Results

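The genes described here are 39 genes of the cell's response to amino acid shortage and to unfolded protein in the endoplasmic reticulum (ER), with the transcription factor ATF4 at its centre. They were taken by name from a list made with earlier results of these data known, out of 58302 genes listed for each library, of which 36305 were above 0 in at least 1 library. All 39 were found, with 4 stress sensors, 7 transcription factors, 2 phosphatase subunits, 3 other ATF4 targets, 6 enzymes of amino acid and folate metabolism, 7 amino acid transporters and 10 ER chaperones and degradation factors. The values come from RNA sequencing of 769-P and ACHN, established human renal carcinoma cell lines, 48 h after transfection with siNUF2 or siControl. NUF2 is a subunit of the NDC80 complex, which ties chromosomes to spindle microtubules. The siNUF2 groups received a mixture of siRNAs against NUF2 and the siControl groups a negative control siRNA, with the same transfection reagent, and each line and siRNA had 3 libraries. 769-P cells were grown in RPMI medium and ACHN cells in Eagle's minimum essential medium, so line and medium cannot be told apart. Nothing in the labels or methods says whether the 3 libraries of a group came from separate cultures, so the p-values below measure only the spread between these libraries.

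When an eIF2α kinase is active, general translation slows while ATF4 mRNA is translated better, and ATF4 protein then raises the transcription of amino acid transporters, serine and asparagine synthesis enzymes and other stress genes. The kinase PERK, encoded by EIF2AK3, senses unfolded protein in the ER, and GCN2, encoded by EIF2AK4, senses uncharged tRNA. In the other branches of the unfolded protein response, IRE1, encoded by ERN1, splices the XBP1 mRNA, and ATF6 is cleaved to release a transcription factor, and both raise ER chaperones and degradation factors. These steps act largely on translation, splicing and cleavage, which the mRNA levels of this series do not measure.

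The promoters of 36 of the 39 genes were matched by symbol in RefSeq (GRCh38.p14). Both motifs named in this paragraph were searched on both strands from 250 bases before to 50 bases after each RefSeq start. The C/EBP-ATF element, written TGATGNAA, to which ATF4 binds with a C/EBP partner, was present in 1003 of 27305 promoters (3.67%) and in 7 of the 36. The ER stress element, CCAAT and then CCACG after 9 further bases, to which ATF6 binds with the factor NF-Y, was present in 22 of the 27305 (0.0806%) and in 4 of the 36, namely HSPA5, HSP90B1, CRELD2 and XBP1. The 250 bases before the start are shown, 5′ to 3′ on the strand of the gene, for 3 chaperone genes with the ER stress element and for ASNS and CHAC1 with the C/EBP-ATF element, because the levels of these genes are followed below. Capitals mark the letters of the motif, which read in reverse complement where the match lies on the other strand. HSPA5 is at chr9:125241344-125241593 (minus strand), HSP90B1 at chr12:103930160-103930409 (plus), CRELD2 at chr22:49918384-49918633 (plus), ASNS at chr7:97872409-97872658 (minus) and CHAC1 at chr15:40953221-40953470 (plus).
HSPA5: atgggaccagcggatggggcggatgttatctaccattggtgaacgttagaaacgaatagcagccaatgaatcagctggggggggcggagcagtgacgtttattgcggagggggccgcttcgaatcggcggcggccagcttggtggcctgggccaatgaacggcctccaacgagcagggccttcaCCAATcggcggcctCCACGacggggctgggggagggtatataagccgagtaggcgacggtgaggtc
HSP90B1: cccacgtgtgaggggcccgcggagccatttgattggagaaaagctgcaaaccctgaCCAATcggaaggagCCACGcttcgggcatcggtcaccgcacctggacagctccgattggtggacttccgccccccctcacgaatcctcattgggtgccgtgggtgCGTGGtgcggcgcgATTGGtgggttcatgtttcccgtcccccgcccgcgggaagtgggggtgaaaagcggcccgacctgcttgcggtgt
CRELD2: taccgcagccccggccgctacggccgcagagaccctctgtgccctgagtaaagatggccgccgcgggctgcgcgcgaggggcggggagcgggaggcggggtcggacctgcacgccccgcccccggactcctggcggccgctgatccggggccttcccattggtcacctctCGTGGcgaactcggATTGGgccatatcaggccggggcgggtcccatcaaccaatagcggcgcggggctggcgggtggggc
ASNS: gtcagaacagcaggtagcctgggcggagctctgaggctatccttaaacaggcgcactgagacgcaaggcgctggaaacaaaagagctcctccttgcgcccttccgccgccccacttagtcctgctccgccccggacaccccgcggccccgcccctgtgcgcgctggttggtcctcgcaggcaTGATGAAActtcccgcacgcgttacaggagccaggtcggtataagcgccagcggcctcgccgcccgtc
CHAC1: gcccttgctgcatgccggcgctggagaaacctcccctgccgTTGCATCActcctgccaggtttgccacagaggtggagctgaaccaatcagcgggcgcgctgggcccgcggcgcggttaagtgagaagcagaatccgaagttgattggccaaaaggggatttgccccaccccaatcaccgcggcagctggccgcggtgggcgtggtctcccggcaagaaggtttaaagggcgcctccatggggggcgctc
The match began at position -66 from the RefSeq start in HSPA5, at -194 and -89 in HSP90B1, at -80 in CRELD2, at -68 in ASNS and at -209 in CHAC1. These positions depend on the start used. The GENCODE start lies before the RefSeq start by 303 bases in HSP90B1, 467 in CRELD2, 509 in CHAC1 and 134 in ASNS. The bases shown for HSP90B1, CRELD2 and CHAC1 thus lie inside the gene as GENCODE draws it. The C/EBP-ATF letters were also found in ATF3, HERPUD1, PPP1R15B, SLC3A2 and SLC7A1. A match of letters is a description of the sequence and not evidence of binding. The genes were listed as genes of these pathways, so setting their matches against those of all promoters is not a test.

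The deposited values were FPKM, fragments scaled to exon length and to library size, and the depth recovered from them was 29244017 to 38864844 reads per library. NUF2 itself was at 19.4, 17.8 and 17.8 FPKM in the 769-P siControl libraries and at 4.17, 3.86 and 3.01 with siNUF2. The ACHN libraries had 11.6, 15.01 and 14.8 with siControl and 2.16, 5.14 and 4.25 with siNUF2. The groups did not overlap in either line, with a log2 fold change of -2.29 ± 0.13 (SE) in 769-P (limma, Benjamini-Hochberg adjusted p = 0.00141) and -1.88 ± 0.32 in ACHN (limma, Benjamini-Hochberg adjusted p = 0.228, or 0.0127 with the replicate number as a block). Of 7 markers of renal epithelium, 7 were at 0.5 FPKM or more in every 769-P library and 6 in every ACHN library, where CDH6 was the exception, while markers of leukocytes, endothelium and fibroblasts summed to at most 0.0994 FPKM in any library. Of 4 hypoxia genes of clear cell carcinoma, only 1 reached 0.5 FPKM in every library of each 769-P group, and 2 did in each ACHN group. These 4 genes summed to at most 1.73 FPKM in 769-P and to 11.5 to 33.6 FPKM in ACHN. Both ACHN libraries numbered 1 stood apart from the others of their group in several of the genes described here, by values given below. For some of these genes, but not for all, values are also given without these libraries.

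The larger part of these genes was lower in 769-P than in ACHN cells under siControl. At an adjusted p under 0.05, 29 of the 39 genes were lower in 769-P and 0 were higher, where 30.0% of the 15381 genes tested were lower and 31.4% were higher in the same comparison. The median log2 difference, 769-P minus ACHN, was -0.98 over the 39 genes and 0.02 over all genes tested. By group, 6 of 6 enzymes, 6 of 7 transporters, 6 of 7 transcription factors, 3 of 3 other ATF4 targets, 3 of 4 sensors, 1 of 2 phosphatase subunits and 4 of 10 ER genes were lower. The medians ran from -2.05 for the enzymes to -0.18 for the ER genes. SLC1A4 and ASNS, counted among the 29, passed the filter of 0.5 FPKM in at least 3 libraries only through ACHN. With a filter of 1 FPKM in every library, 27 of 36 genes were lower and 0 higher. Of all 10331 genes then tested, 2688 were lower and 3557 higher.

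**Figure D1:**
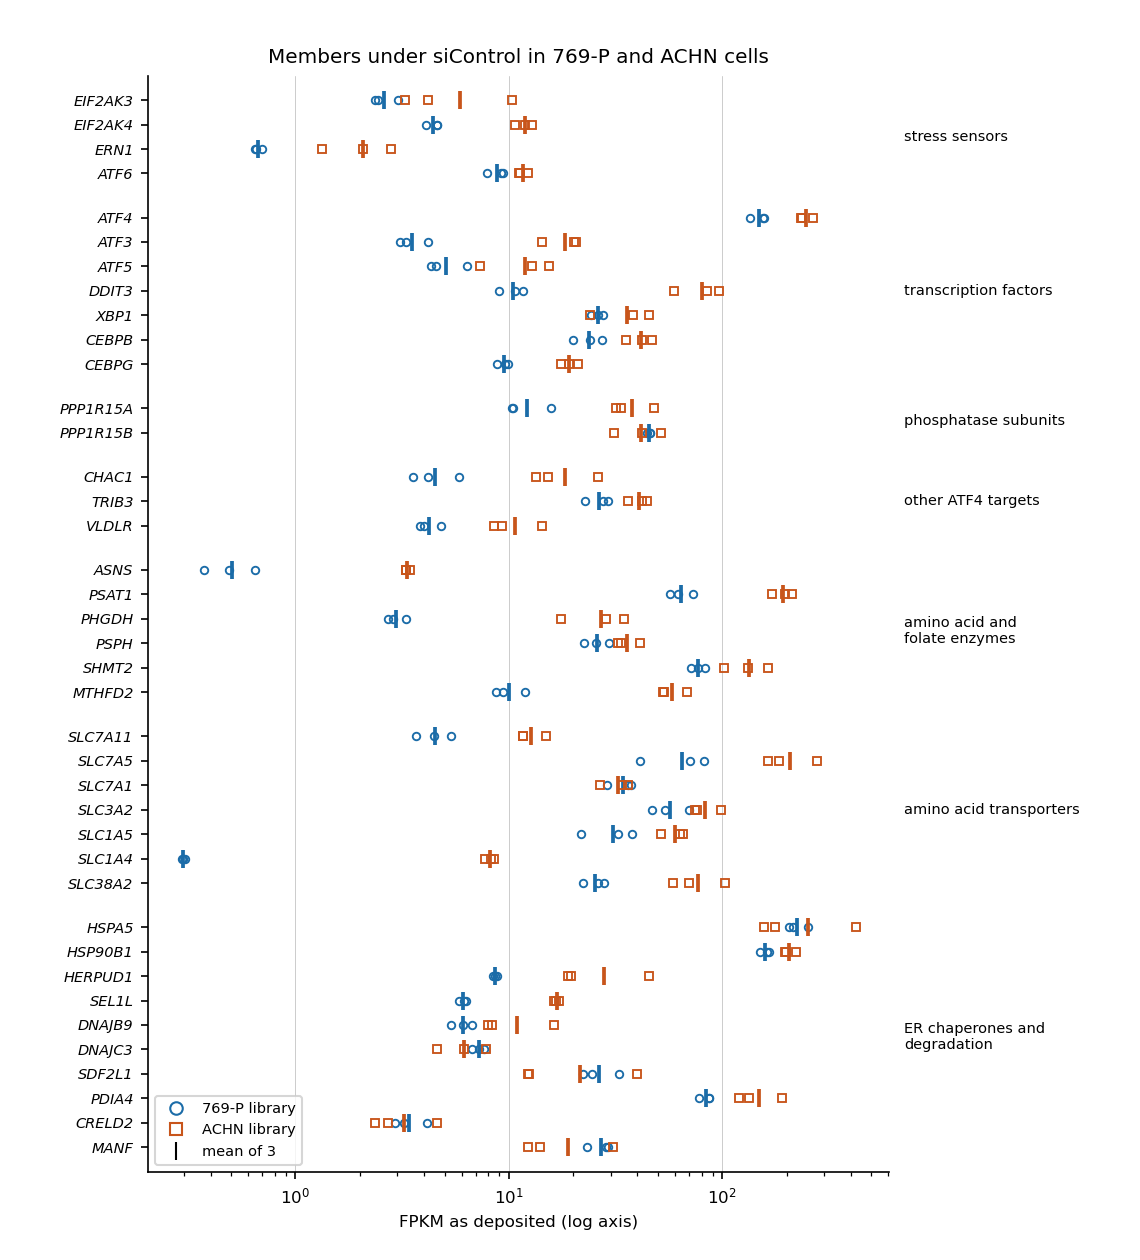
FPKM of the 39 genes (log axis) in the 3 siControl libraries of 769-P (blue circles) and ACHN (orange squares), grouped by role, with the mean of each group as a bar. Enzymes and most transporters of 769-P cells sit to the left of those of ACHN cells, with SLC1A4 farthest apart (0.298 against 8.16 FPKM), while in HSPA5, SDF2L1 and MANF 1 ACHN library lies far to the right of the other ACHN libraries.

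Among the transcription factors, ATF4 (chr22:39519695-39522685 on hg38) was abundant in both lines. It was at 155, 157 and 134 FPKM in the 769-P siControl libraries and at 235, 236 and 267 in those of ACHN. The log2 difference was -0.71 ± 0.10 (limma, Benjamini-Hochberg adjusted p = 0.00104), and the groups did not overlap. DDIT3 (chr12:57516588-57521737), which encodes CHOP, a factor that promotes cell death in prolonged stress, differed more. It was at 11.7, 10.7 and 8.95 FPKM in 769-P and at 85.1, 96.3 and 59.5 in ACHN. Its mean was 7.68-fold higher in ACHN, with a log2 difference of -2.89 ± 0.20 (limma, Benjamini-Hochberg adjusted p = 4.02e-05). Of its exon bases 27.16% lie opposite MARS, which reached 83.5 FPKM, and 8.03% are shared with AC022506.1 on the same strand. The strand setting is not known, so the DDIT3 level is uncertain. ATF3, a repressor and stress-inducible factor, was at 3.30, 3.10 and 4.16 FPKM against 20.2, 20.6 and 14.4, a log2 difference of -2.33 ± 0.18 (limma, Benjamini-Hochberg adjusted p = 7.29e-05). CEBPG, a partner of ATF4, differed by -0.996, ATF5 by -1.14 and CEBPB by -0.78. XBP1, whose spliced mRNA encodes a factor of the ER branch, did not pass the test. It was at 27.7, 26.2 and 24.1 FPKM in 769-P and at 45.4, 24.1 and 38.1 in ACHN, where the library numbered 2 lay within the range of 769-P (log2 difference -0.40 ± 0.23, limma, Benjamini-Hochberg adjusted p = 0.166). Without ACHN library 2 the XBP1 difference was -0.67 (limma, Benjamini-Hochberg adjusted p = 0.00411), the only setting run in which it passed. Without ACHN library 1 it was -0.22 (limma, Benjamini-Hochberg adjusted p = 0.383).

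The enzymes of serine, asparagine and folate metabolism differed most as a group. PHGDH, which catalyses the entry step of serine synthesis, was at 3.29, 2.85 and 2.70 FPKM in 769-P and at 17.6, 34.4 and 28.6 in ACHN. The mean was 9.12-fold higher in ACHN (log2 difference -3.08 ± 0.24, limma, Benjamini-Hochberg adjusted p = 7.39e-05), and every ACHN library was above every 769-P library. ASNS (chr7:97852118-97872542), asparagine synthetase, was low throughout, at 0.488, 0.644 and 0.374 FPKM in 769-P and at 3.30, 3.28 and 3.43 in ACHN. The log2 difference was -2.52 ± 0.20 (limma, Benjamini-Hochberg adjusted p = 6.82e-05), on 54 to 564 reads per library. In 769-P only the library at 0.644 reached the filter of 0.5 FPKM. ASNS was thus tested because of its ACHN values, and the p-value gives little support. ASNS shares 44.56% of its exon bases with another gene on the same strand, AC079781.5, so reads from the shared part could be lost or split, and its level is uncertain. MTHFD2, a mitochondrial folate enzyme, was at 11.9, 9.37 and 8.75 FPKM in 769-P and at 52.7, 53.4 and 68.4 in ACHN (log2 difference -2.51 ± 0.16, limma, Benjamini-Hochberg adjusted p = 2.87e-05). PSAT1, the aminotransferase of serine synthesis, was at 73.2, 62.0 and 56.7 against 171, 212 and 197 FPKM (log2 difference -1.58 ± 0.13, limma, Benjamini-Hochberg adjusted p = 8.74e-05). PSPH, the phosphatase that completes serine synthesis, and SHMT2, which makes glycine from serine in mitochondria, were also lower, by smaller log2 differences of -0.44 and -0.74.

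Among the transporters SLC1A4, which carries alanine, serine and cysteine, differed most and was very low in 769-P. Its level was 0.294, 0.297 and 0.303 FPKM there, against 8.23, 8.50 and 7.75 FPKM in ACHN, a mean 27.4-fold higher (log2 difference of FPKM + 0.1 -4.36 ± 0.13). Every 769-P library was below the filter of 0.5 FPKM, so SLC1A4 was tested only because it was high in ACHN. Its call could hardly have gone the other way, and no p-value is given for it. SLC7A5, the light chain of a carrier of large neutral amino acids, was at 81.7, 70.5 and 41.1 FPKM in 769-P and at 277, 164 and 185 in ACHN (log2 difference -1.70 ± 0.30, limma, Benjamini-Hochberg adjusted p = 0.00259). SLC38A2, a sodium-coupled carrier of small neutral amino acids, was at 22.3, 26.1 and 27.8 against 103, 59.0 and 69.6 FPKM (log2 difference -1.55 ± 0.21, limma, Benjamini-Hochberg adjusted p = 0.000781). SLC7A11, the cystine carrier, differed by -1.47, SLC1A5, a glutamine carrier, by -0.98 and SLC3A2, the heavy chain that pairs with SLC7A5 and SLC7A11, by -0.53. The exception was SLC7A1, a carrier of arginine and lysine, at 36.2, 37.1 and 28.97 FPKM in 769-P and 33.9, 26.8 and 36.2 in ACHN. These groups overlapped and the log2 difference was 0.10 (limma, Benjamini-Hochberg adjusted p = 0.602).

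Of the other genes downstream of ATF4, CHAC1, which breaks down glutathione, was at 5.84, 4.18 and 3.54 FPKM in 769-P and at 26.1, 13.4 and 15.3 in ACHN (log2 difference -1.94 ± 0.29, limma, Benjamini-Hochberg adjusted p = 0.00120). TRIB3, a pseudokinase that restrains ATF4, differed by -0.61 and VLDLR, a lipoprotein receptor, by -1.28. PPP1R15A, the stress-inducible subunit that directs dephosphorylation of eIF2α, was at 15.8, 10.4 and 10.4 FPKM in 769-P and at 47.9, 31.8 and 33.6 in ACHN (log2 difference -1.61 ± 0.22, limma, Benjamini-Hochberg adjusted p = 0.000872). PPP1R15B, its constitutive counterpart, was at 44.2 to 46.1 FPKM in 769-P and 31.2 to 51.5 in ACHN, and did not pass the test (log2 difference 0.17, limma, Benjamini-Hochberg adjusted p = 0.431). In these libraries the inducible subunit differed between the lines and the constitutive one was not shown to. Of the sensors, EIF2AK4 differed by -1.38, ERN1 by -1.43 and ATF6 by -0.38, and EIF2AK3 by -0.96 did not pass (limma, Benjamini-Hochberg adjusted p = 0.0787). Without ACHN library 1 the EIF2AK3 difference was -0.48 (limma, Benjamini-Hochberg adjusted p = 0.0613), and without ACHN library 2 it was -1.30 and passed (limma, Benjamini-Hochberg adjusted p = 0.0228).

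The ER genes were split. HERPUD1 (chr16:56932048-56944863), a membrane component of ER-associated degradation, was at 8.83, 8.56 and 8.42 FPKM in 769-P and at 45.2, 19.0 and 19.6 in ACHN (log2 difference -1.55 ± 0.32, limma, Benjamini-Hochberg adjusted p = 0.00555). SEL1L, the scaffold of the same degradation complex, differed by -1.42, PDIA4, a disulfide isomerase, by -0.77 and HSP90B1, the ER form of HSP90, by -0.36. DNAJB9, a co-chaperone of BiP, missed the threshold at -0.74 (limma, Benjamini-Hochberg adjusted p = 0.0543), and was called lower with the block, with FPKM as deposited, in a common fit of all 12 libraries, with a filter of 1 FPKM and without any 1 of the ACHN libraries (-0.42 without library 1). HSPA5 (chr9:125234853-125241330), the central chaperone BiP, was at 251, 206 and 214 FPKM in 769-P and at 421, 176 and 158 in ACHN, so that the 769-P libraries lay inside the range of ACHN (log2 difference -0.01 ± 0.36, limma, Benjamini-Hochberg adjusted p = 0.986). Without the ACHN library numbered 1, HSPA5, SDF2L1 and MANF were higher in 769-P, by log2 differences of 0.42 (limma, Benjamini-Hochberg adjusted p = 0.0243), 1.08 (limma, Benjamini-Hochberg adjusted p = 0.00319) and 1.04 (limma, Benjamini-Hochberg adjusted p = 0.00153). SDF2L1 is a component of ER chaperone complexes and MANF a secreted ER stress protein, and no other of the 39 genes was called higher in 769-P under any setting run. Over the fits that left out 1 library each, 26 to 30 genes were called lower. The calls that were lost in at least 1 of these fits were those of ATF6, PSPH, HSP90B1, SLC3A2, ATF5 and SLC1A4, the last because it was then not tested.

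After siNUF2 in 769-P cells, 6 of the 38 genes tested changed at an adjusted p under 0.05, where 9.9% of the 14157 genes tested did. TRIB3, CRELD2, ATF6 and HSP90B1 rose, and VLDLR and EIF2AK3 fell. SLC1A4 was below the filter of 0.5 FPKM in at least 3 libraries and was not tested. The median log2 fold change was 0.08 over the 38 genes and -0.01 over all genes, with 24 genes above 0 and 14 below. The groups did not overlap in 11 of the 38, against 33.3% of all genes tested. With 3 libraries against 3 an exact permutation test of a single gene cannot give a p below 0.1. Within each line the libraries with the same replicate number deviated together, and with the number as a block 19 of the 38 were called (11 higher, 8 lower) where 27.6% of all genes were. Fewer genes passed when 1 library was left out, among all genes (2.66% to 8.16% called) as among these. Without siNUF2 replicate 1 or 3, or siControl replicate 2 or 3, 0 of the genes passed, without siNUF2 replicate 2 only HSP90B1 did, and without siControl replicate 1 TRIB3, HSP90B1, SLC3A2 and CRELD2 rose and VLDLR fell. With all 12 libraries in a common fit ATF6 and HSP90B1 passed, and with no filter on low values 0 did (2.04% of all genes). With FPKM as deposited the ATF6 call was lost (limma, Benjamini-Hochberg adjusted p = 0.0519). Leaving out 1 library at a time, the log2 fold change of TRIB3 ran from 0.50 to 0.70 and that of HSP90B1 from 0.33 to 0.46.

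**Figure D2:**
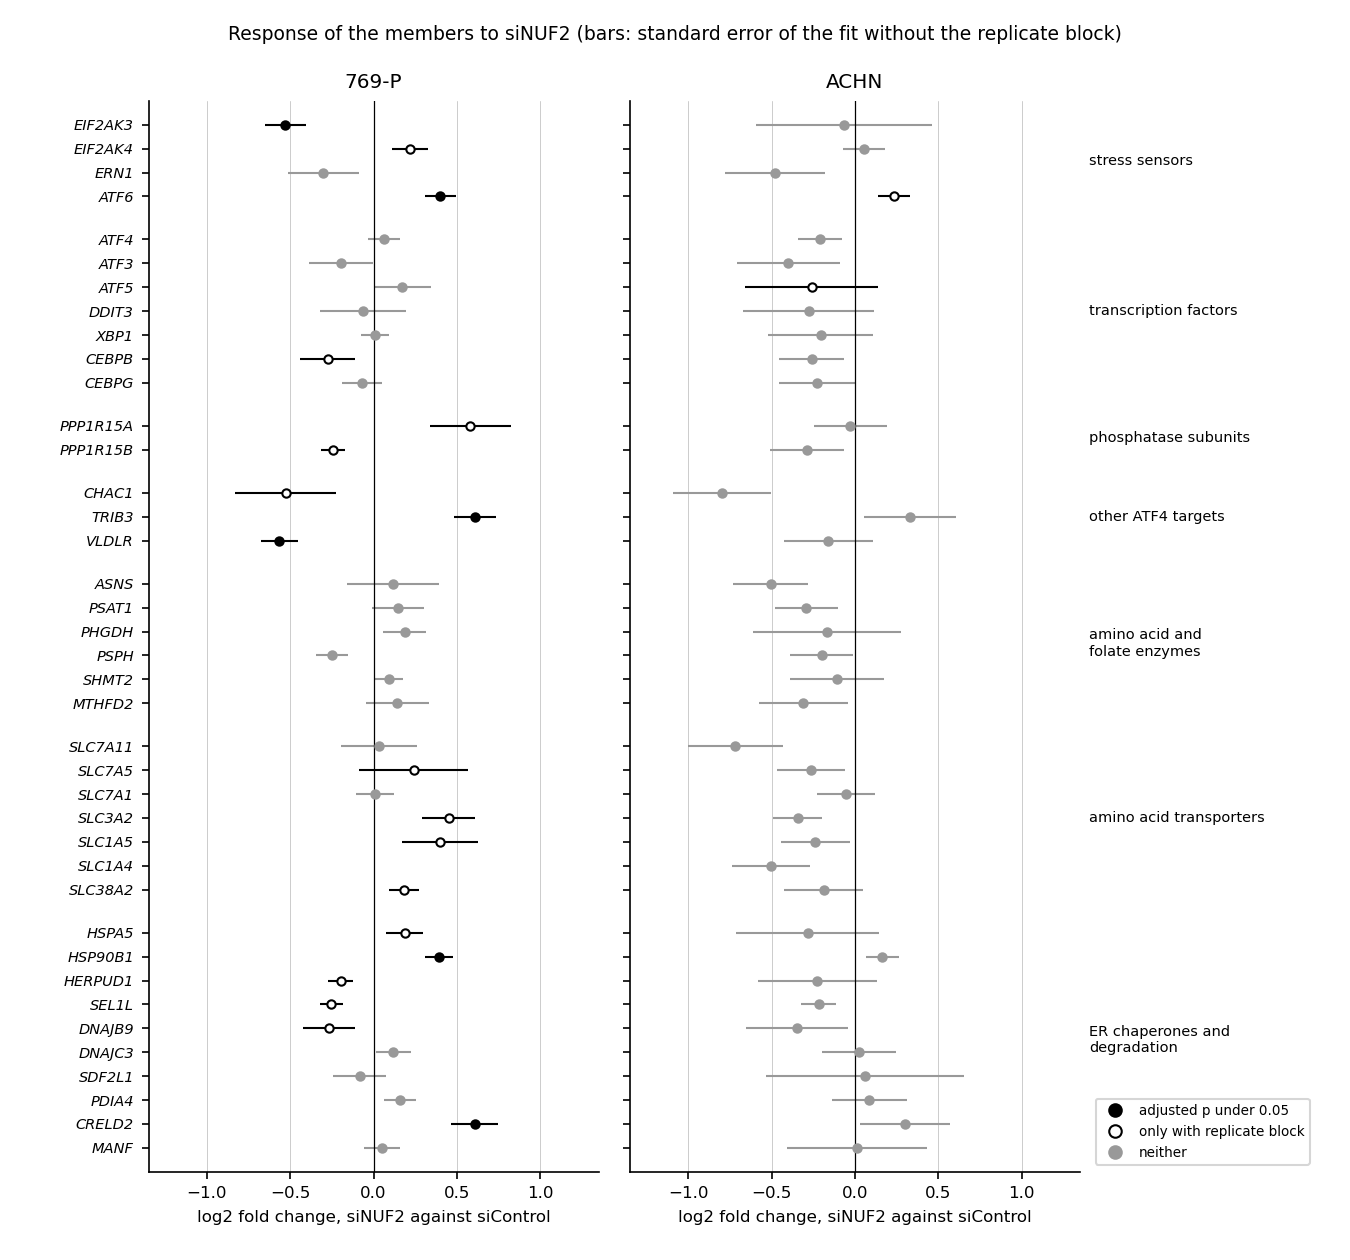
Log2 fold change of each gene with siNUF2 against siControl in 769-P (left) and ACHN (right) with the standard error of the fit as a line. Black points passed an adjusted p under 0.05, open points passed only with the replicate block and grey points passed neither. In 769-P 6 points are black and 13 are open, in ACHN 2 are open, and the transporters lie above 0 in 769-P and below 0 in ACHN.

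Of the sensors in 769-P, ATF6 (chr1:161766294-161964070) was at 7.90, 9.39 and 9.15 FPKM with siControl and at 10.6, 11.6 and 12.5 with siNUF2. It was higher in all 3 numbered pairs, with a log2 fold change of 0.40 ± 0.09 (limma, Benjamini-Hochberg adjusted p = 0.0425, or 0.00925 with the block). EIF2AK3 (chr2:88556741-88627576) was at 2.36, 2.44 and 3.03 FPKM with siControl and at 1.63, 1.804 and 1.83 with siNUF2. Each siNUF2 library was below each siControl library, and the log2 fold change was -0.53 ± 0.12 (limma, Benjamini-Hochberg adjusted p = 0.0419, or 0.0159 with the block). EIF2AK4 was higher in 3 of 3 pairs by 0.22 and was called only with the block (limma, Benjamini-Hochberg adjusted p = 0.0435), and ERN1 at -0.30 was not called in either fit.

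In 769-P 0 of the 7 transcription factors passed without the block. ATF4 was at 163, 162 and 137 FPKM with siNUF2 and at 155, 157 and 134 with siControl, values that overlapped and gave a log2 fold change of 0.06 ± 0.10 (limma, Benjamini-Hochberg adjusted p = 0.728). DDIT3 was at 14.1, 10.1 and 6.70 FPKM with siNUF2, a wider range than the 8.95 to 11.7 of siControl (log2 fold change -0.06 ± 0.26, limma, Benjamini-Hochberg adjusted p = 0.903). XBP1 was at 27.5, 24.2 and 26.2 FPKM with siNUF2 and its groups overlapped (log2 fold change 0.01 ± 0.08, limma, Benjamini-Hochberg adjusted p = 0.948). CEBPB, a C/EBP factor that can pair with ATF4, was at 23.2, 19.4 and 16.04 FPKM with siNUF2 and at 27.3, 24.1 and 20.1 with siControl. It was lower in 3 of 3 pairs, with log2 differences of -0.23 to -0.32, and passed only with the block (log2 fold change -0.27, limma, Benjamini-Hochberg adjusted p = 0.0135).

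The ATF4 targets in 769-P did not move one way. TRIB3 (chr20:362835-397559) was at 27.6, 29.03 and 22.6 FPKM with siControl and at 44.7, 40.1 and 35.2 with siNUF2. Every siNUF2 library was above every siControl library, a log2 fold change of 0.61 ± 0.13 (limma, Benjamini-Hochberg adjusted p = 0.0314, or 0.00619 with the block). VLDLR (chr9:2621834-2660053) was at 3.82, 3.9999 and 4.79 FPKM with siControl and at 2.904, 2.87 and 2.55 with siNUF2, and fell by 0.57 ± 0.11 on the log2 scale (limma, Benjamini-Hochberg adjusted p = 0.0268, or 0.0235 with the block). CHAC1 was at 5.84, 4.18 and 3.54 FPKM with siControl and at 4.01, 3.58 and 1.90 with siNUF2, a log2 fold change of -0.53 ± 0.30 that passed only with the block (limma, Benjamini-Hochberg adjusted p = 0.313 without and 0.0413 with it). PPP1R15A was at 15.8, 10.4 and 10.4 FPKM with siControl and at 24.7, 14.4 and 15.8 with siNUF2, with library 1 the highest of each group. Its log2 fold change of 0.58 ± 0.25 passed only with the block (limma, Benjamini-Hochberg adjusted p = 0.180 without and 0.00619 with it). PPP1R15B was at -0.24 and likewise passed only with the block (limma, Benjamini-Hochberg adjusted p = 0.0293).

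Of the 6 enzymes in 769-P, 0 passed with or without the block, although 5 of 6 had a log2 fold change above 0. ASNS was at 0.537, 0.663 and 0.431 FPKM with siNUF2 (log2 fold change 0.12 ± 0.28, limma, Benjamini-Hochberg adjusted p = 0.827), and the other 4 positive values ran from 0.09 for SHMT2 to 0.19 for PHGDH. All 6 transporters tested were above 0, and 0 passed without the block and 4 with it. SLC3A2 was at 70.0, 53.9 and 46.9 FPKM with siControl and at 85.5, 69.7 and 73.8 with siNUF2 (log2 fold change 0.45 ± 0.16, limma, Benjamini-Hochberg adjusted p = 0.121 without the block and 0.0181 with it). SLC1A5 was at 37.6, 32.5 and 21.8 FPKM with siControl and at 46.0, 41.4 and 31.4 with siNUF2 (log2 fold change 0.40 ± 0.23, limma, Benjamini-Hochberg adjusted p = 0.304 without the block and 0.0124 with it). In both genes the siNUF2 library was higher in 3 of 3 pairs while the groups overlapped. SLC7A5 (0.24) and SLC38A2 (0.18) were the others called with the block.

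Of the 10 ER genes in 769-P, CRELD2 and HSP90B1 rose. CRELD2 (chr22:49918167-49927540), a disulfide isomerase-like ER protein, was at 4.12, 2.93 and 3.21 FPKM with siControl and at 5.50, 4.76 and 5.24 with siNUF2. Its log2 fold change was 0.61 ± 0.14 (limma, Benjamini-Hochberg adjusted p = 0.0410, or 0.0101 with the block). HSP90B1 (chr12:103930107-103953645) was at 165, 150 and 162 FPKM with siControl and at 206, 190 and 226 with siNUF2 (log2 fold change 0.39 ± 0.08, limma, Benjamini-Hochberg adjusted p = 0.0314, or 0.00836 with the block). HSPA5 was at 278, 227 and 253 FPKM with siNUF2, higher than its numbered partner in 3 of 3 pairs by 0.13 to 0.24 on the log2 scale (log2 fold change 0.19 ± 0.11, limma, Benjamini-Hochberg adjusted p = 0.319 without the block and 0.0276 with it). HERPUD1 was at 7.86, 7.40 and 7.02 FPKM with siNUF2, below each siControl library, with a log2 fold change of -0.20 ± 0.08 (limma, Benjamini-Hochberg adjusted p = 0.150 without the block and 0.0410 with it). SEL1L (-0.25) and DNAJB9 (-0.27) were also called lower only with the block.

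**Figure D3:**
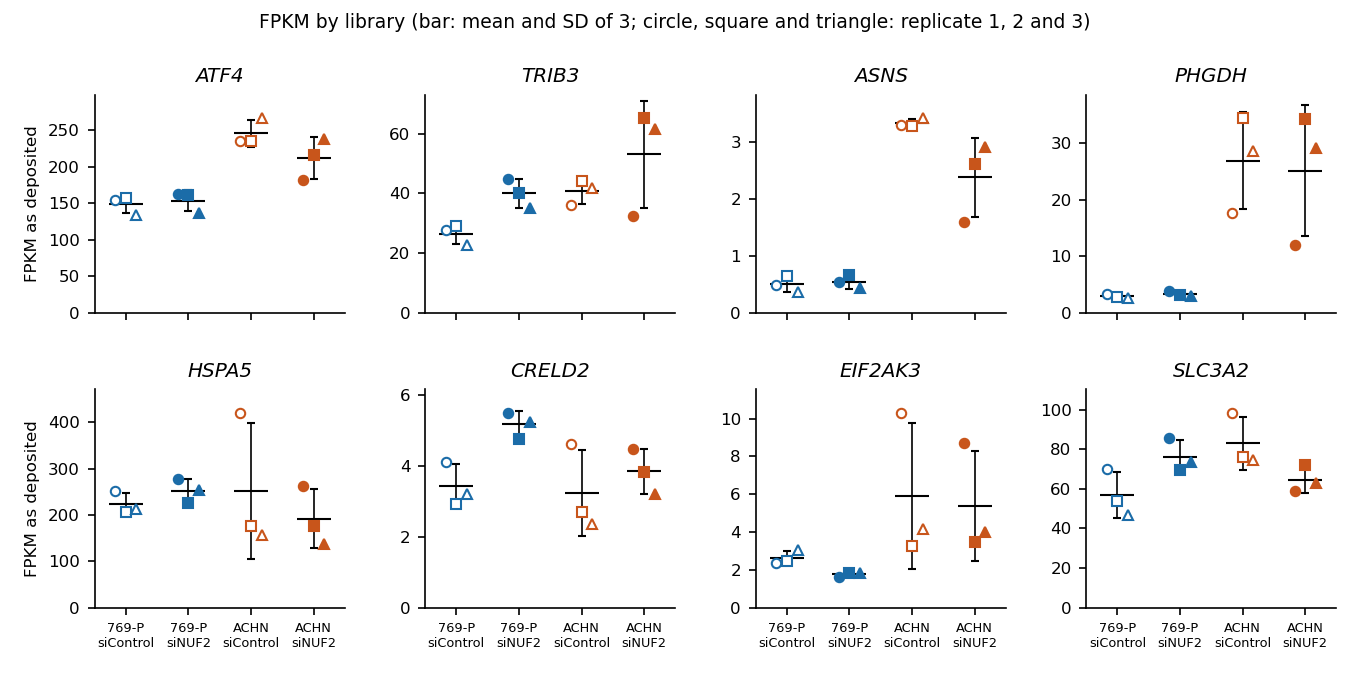
FPKM of 8 genes in each of the 12 libraries, with the mean and SD of each group of 3 as a bar and line and the replicate numbers as circle (1), square (2) and triangle (3). TRIB3 in 769-P is at 35.2 to 44.7 with siNUF2 against 22.6 to 29.03 with siControl, and in ACHN the library numbered 1 is the highest of its group in HSPA5 and EIF2AK3 and the lowest in PHGDH.

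In ACHN cells 0 of the 39 genes passed after siNUF2, as did 0.0% of the 15114 genes tested with limma without the block, while 2 of the 39 and 1231 of all genes had an unadjusted p under 0.05. A common fit of all 12 libraries called 167 genes in ACHN and 0 of the 39. That fit takes 1 spread per gene for both lines. The median SD over all genes was 0.213 (siNUF2) and 0.221 (siControl) in ACHN and 0.134 and 0.144 in 769-P. The common fit may therefore call too many genes in ACHN and too few in 769-P. With the replicate block 11.7% of all genes were called, and of the 39 only ATF6, higher, and ATF5, lower. The median log2 fold change was -0.22 over the 39 genes and 0.00 over all genes, with 30 genes below 0 and 9 above. All 7 transcription factors, all 6 enzymes and all 7 transporters were below 0. These directions rested partly on the libraries numbered 1. Without both of them, a choice made after seeing the data, the median was -0.03, 24 genes were below 0 and 15 above, and 0 passed. The groups did not overlap in 7 of the 39, against 14.3% of all genes tested.

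ATF6 in ACHN was at 11.3, 11.2 and 12.3 FPKM with siControl and at 13.4, 12.8 and 14.5 with siNUF2. The 3 pairs differed by 0.25, 0.19 and 0.24 on the log2 scale, and the log2 fold change was 0.23 ± 0.10 (limma, Benjamini-Hochberg adjusted p = 0.616 without the block and 0.0417 with it). ATF5, a factor related to ATF4, was at 7.32, 15.5 and 12.8 FPKM with siControl and at 5.71, 13.7 and 10.5 with siNUF2, so that it was lower in 3 of 3 pairs while the groups overlapped widely (log2 fold change -0.26 ± 0.40, limma, Benjamini-Hochberg adjusted p = 0.977 without the block and 0.0491 with it). ATF4 was at 182, 216 and 239 FPKM with siNUF2 and at 235, 236 and 267 with siControl, lower in 3 of 3 pairs and not called (log2 fold change -0.21 ± 0.13, limma, Benjamini-Hochberg adjusted p = 0.805, or -0.13 without both libraries numbered 1). DDIT3 was at 37.6, 107 and 66.9 FPKM with siNUF2 and at 85.1, 96.3 and 59.5 with siControl. The log2 difference was -1.18 in pair 1 and 0.15 and 0.17 in the other pairs (log2 fold change -0.28 ± 0.39, limma, Benjamini-Hochberg adjusted p = 0.972, or 0.17 without pair 1). XBP1 was at 29.6, 22.0 and 41.1 FPKM with siNUF2 and overlapped siControl (log2 fold change -0.20 ± 0.31, limma, Benjamini-Hochberg adjusted p = 0.977, or -0.0019 without pair 1).

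The lowest values in ACHN were in CHAC1 and SLC7A11, the 2 genes with an unadjusted p under 0.05. CHAC1 was at 7.64, 10.5 and 12.2 FPKM with siNUF2 and at 26.1, 13.4 and 15.3 with siControl, and its log2 fold change of -0.80 ± 0.30 (limma, Benjamini-Hochberg adjusted p = 0.554) became -0.32 without both libraries numbered 1. SLC7A11 was at 4.89, 8.66 and 10.3 FPKM with siNUF2 and at 11.7, 11.6 and 14.9 with siControl (log2 fold change -0.72 ± 0.29, limma, Benjamini-Hochberg adjusted p = 0.590), and at -0.46 without them. In both genes every siNUF2 library was below every siControl library. ASNS was at 1.60, 2.62 and 2.92 FPKM with siNUF2, below the 3.28 to 3.43 of siControl, and was not called (log2 fold change -0.51 ± 0.23, limma, Benjamini-Hochberg adjusted p = 0.654, or -0.26 without both libraries numbered 1). HSPA5 was at 262, 177 and 137 FPKM with siNUF2 and 421, 176 and 158 with siControl (log2 fold change -0.28 ± 0.43, limma, Benjamini-Hochberg adjusted p = 0.975), and HERPUD1 at 25.5, 22.6 and 17.99 against 45.2, 19.0 and 19.6 (log2 fold change -0.23 ± 0.36, limma, Benjamini-Hochberg adjusted p = 0.982). In both ER genes the siControl library numbered 1 was far above the other 5, and without pair 1 the log2 fold changes were -0.09 and 0.071. TRIB3, which rose in 769-P, was at 32.5, 65.3 and 61.6 FPKM with siNUF2 and at 36.0, 44.3 and 41.9 with siControl in ACHN, with log2 differences of -0.15, 0.56 and 0.56 in the 3 pairs (log2 fold change 0.33 ± 0.28, limma, Benjamini-Hochberg adjusted p = 0.893, or 0.57 without pair 1).

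A fit of all 12 libraries with an interaction term for line and siRNA asked whether the response differed between 769-P and ACHN. It too takes 1 spread per gene for both lines, although the spread was wider in ACHN. Of the 39 genes 0 differed, as did 0.0% of the 16575 genes tested by limma, with 1 of the 39 and 780 of all genes at an unadjusted p under 0.05. With the block, taken within each line, 0 of the 39 differed, where 1.42% of all genes did, and 15 of the 39 and 3272 of all genes had an unadjusted p under 0.05. The gene at an unadjusted p under 0.05 without the block was SLC3A2, with a difference in response, 769-P minus ACHN, of 0.79 ± 0.23 on the log2 scale (limma, Benjamini-Hochberg adjusted p = 0.895, or 0.0874 with the block). In ACHN, SLC3A2 was at 59.1, 71.9 and 62.7 FPKM with siNUF2 and at 98.5, 76.0 and 74.3 with siControl, below siControl without overlap (log2 fold change -0.34, or -0.15 without pair 1). The differences were 0.27 ± 0.16 for ATF4, 0.62 ± 0.34 for ASNS, 0.46 ± 0.48 for HSPA5, and 0.21 ± 0.51 for DDIT3, 0.21 ± 0.34 for XBP1 and 0.02 ± 0.39 for HERPUD1, none of them past the test. Without both ACHN libraries numbered 1 they were 0.19, 0.37, 0.27, -0.24, 0.0062 and -0.28, in the same order. All 7 transporters and 33 of the 39 genes had a difference above 0, with a median of 0.21, or 0.04 without both ACHN libraries numbered 1. A difference that missed the threshold does not show that the lines responded alike. Differences well above the standard errors given here could have been missed, since SLC3A2 at 0.79 ± 0.23 did not pass.

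Among other genes of these pathways, the cell lines also differed under siControl, but in both directions. Of 62 tested, 27 were lower and 15 higher in 769-P, against 30.0% and 31.4% of all genes, so that several of the counts by list are near those shares. Of the 14 other ATF4 targets tested out of 16 listed, 9 were lower and 2 higher, with NUPR1, a stress-induced chromatin protein, at 0.389 to 0.566 FPKM in 769-P against 29.5 to 37.1 in ACHN. SLC6A9, a glycine transporter, was at most 0.0132 FPKM in 769-P and 1.90 to 3.12 in ACHN, and STC2, a secreted glycoprotein, at 1.08 to 1.63 against 12.8 to 24.1. NUPR1 and SLC6A9 passed the filter on low values only through ACHN, so their calls could hardly have gone the other way. Of the 18 aminoacyl-tRNA synthetases, which charge tRNA with amino acids, 7 were lower and 5 higher. Of the 8 eIF2 kinases and eIF2B subunits 1 was lower and 3 higher, and of the 22 other ER folding and degradation genes 10 were lower and 5 higher.

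With siNUF2 in 769-P, 6 of 61 other pathway genes tested rose and 1 fell, a share (11.5%) near the 9.9% of all genes called. ERO1A, the oxidase that supplies disulfide bonds in the ER, was at 3.39, 3.61 and 3.14 FPKM with siControl and at 6.83, 6.05 and 5.83 with siNUF2 (log2 fold change 0.88 ± 0.10, limma, Benjamini-Hochberg adjusted p = 0.00608). HARS, histidyl-tRNA synthetase, was at 12.2, 11.6 and 10.7 FPKM with siControl and at 17.8, 16.04 and 18.01 with siNUF2 (log2 fold change 0.60 ± 0.09, limma, Benjamini-Hochberg adjusted p = 0.0118). MBTPS2, a protease that cleaves ATF6, fell from 4.59, 4.93 and 5.77 to 3.598, 3.45 and 2.88 FPKM (log2 fold change -0.60 ± 0.12, limma, Benjamini-Hochberg adjusted p = 0.0304). KARS, lysyl-tRNA synthetase, CALR, a lectin chaperone, PDIA3, its isomerase partner, and MBTPS1, which cleaves ATF6 ahead of MBTPS2, rose by 0.47, 0.40, 0.35 and 0.41. All 18 synthetases were above 0 and 2 of them passed. In ACHN 0 of 61 passed, or 7 with the block (6 higher, 1 lower; 11.5%, against 11.7% of all genes), and 0 of 62 differed in response between the lines with or without it.

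The spread between replicates was wider in ACHN than in 769-P, among all genes as among these. The median SD of log2(FPKM + 0.1) over the genes was 0.162 with siNUF2 and 0.179 with siControl in 769-P, where the median over all genes tested was 0.134 and 0.144. It was 0.340 and 0.341 in ACHN, against 0.213 and 0.221. Without the library numbered 1 of each ACHN group the medians were 0.165 with siNUF2 and 0.133 with siControl. These are SDs of 2 libraries, which tend to be lower than SDs of 3, so the share of library 1 in the spread cannot be read from them. The deviation of library 1 differed between the groups of genes. Compared with the mean of libraries 2 and 3, the ER genes were higher in library 1 by a median of 0.92 on the log2 scale with siControl (10 of 10 genes) and 0.37 with siNUF2 (9 of 10). The enzymes were lower, by -0.22 with siControl and -0.77 with siNUF2 (6 of 6 genes in each), and all 7 transcription factors were lower with siNUF2 while 4 of 7 were higher with siControl. The same median over all genes was 0.02 in each group.

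**Figure D4:**
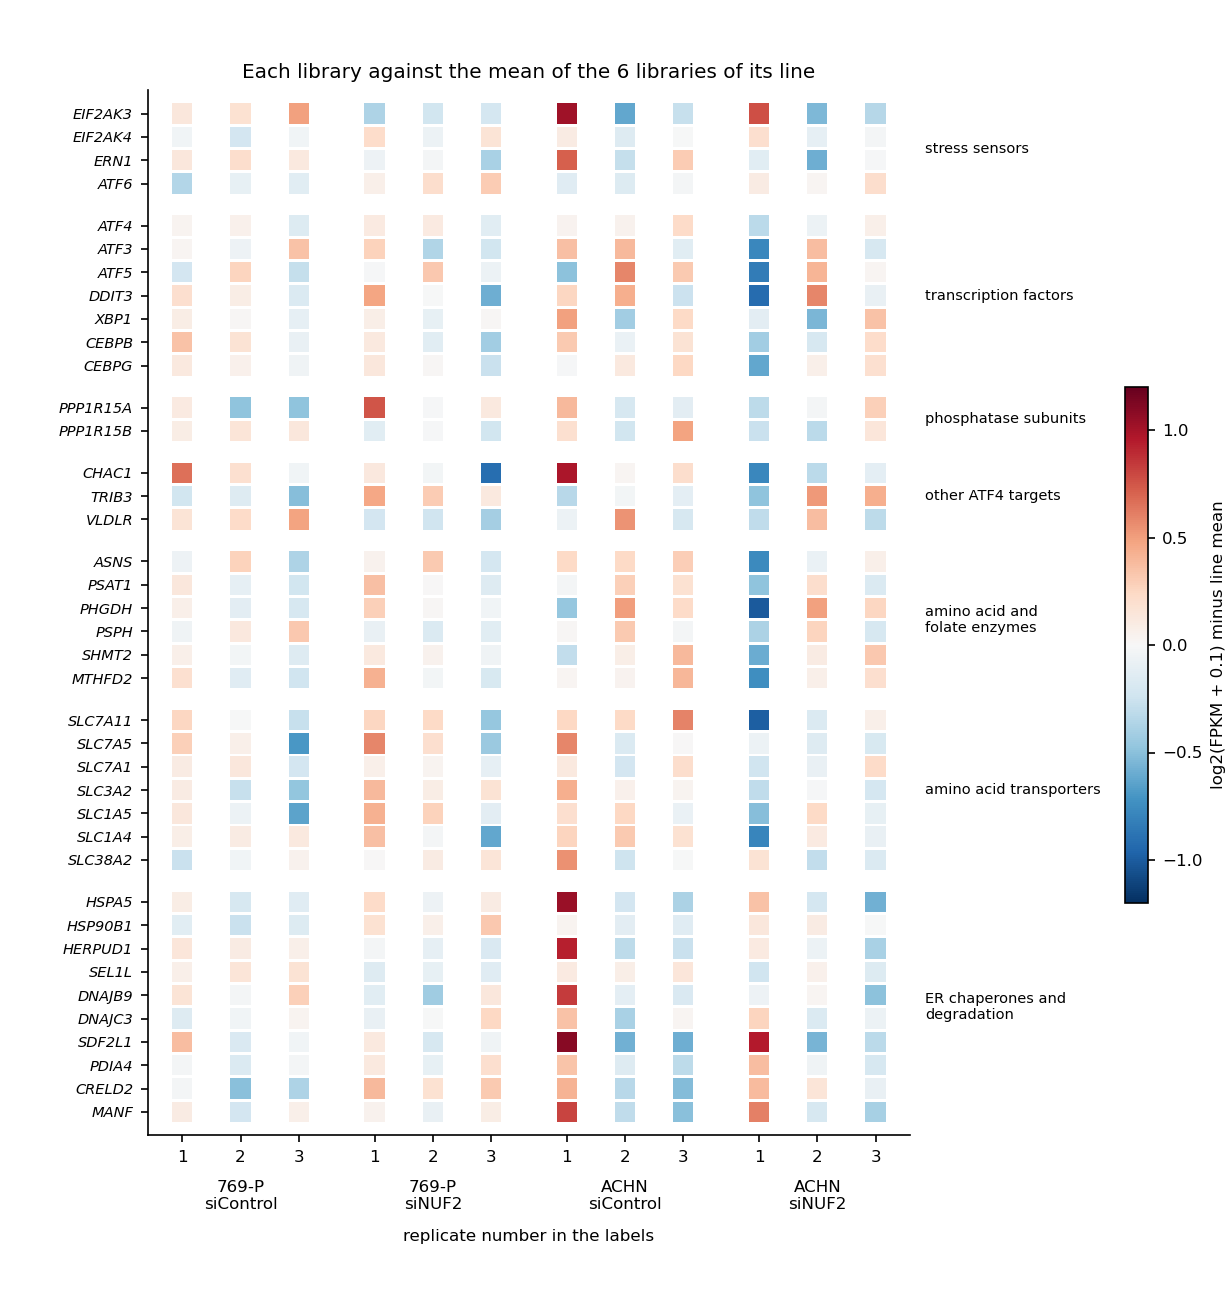
Log2(FPKM + 0.1) of each gene in each library less the mean of the 6 libraries of its cell line, with red above and blue below the mean. Most ER genes and EIF2AK3 are red in ACHN siControl 1, most enzymes and transcription factors are blue in ACHN siNUF2 1, and the 769-P libraries are paler.

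In single genes the deviation of ACHN library 1 exceeded the difference between the siRNAs. SDF2L1 was at 39.7, 12.4 and 12.3 FPKM with siControl and at 36.0, 12.6 and 14.8 with siNUF2. MANF was at 30.6, 14.04 and 12.2 with siControl and at 26.5, 15.1 and 13.2 with siNUF2. EIF2AK3, the PERK gene, was at 10.3, 3.25 and 4.16 with siControl and at 8.71, 3.45 and 3.97 with siNUF2. These 3 genes were highest in library 1 under both siRNAs. PHGDH was at 17.6, 34.4 and 28.6 with siControl and at 12.04, 34.2 and 29.1 with siNUF2, lowest in library 1 under both. ACHN library 1 was the highest of its group for 9 of the 10 ER genes with siControl and for 8 with siNUF2, where 36.5% and 37.1% of all genes tested were highest there. It also held less KRT8, a keratin of simple epithelia, at 57.4 against 161 and 138 FPKM with siControl and at 93.4 against 228 and 210 with siNUF2, and the part of this in the values above was not tested. The summed reads of the 2 libraries were 33812809 with siControl, the lowest in ACHN, and 38864844 with siNUF2, the highest sum of the series. The library sizes behind the FPKM were 31389925 and 36568505 fragments, and by that measure ACHN siControl 2 was the highest (38542660). The part of depth in the values above was not tested either.

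**Figure D5:**
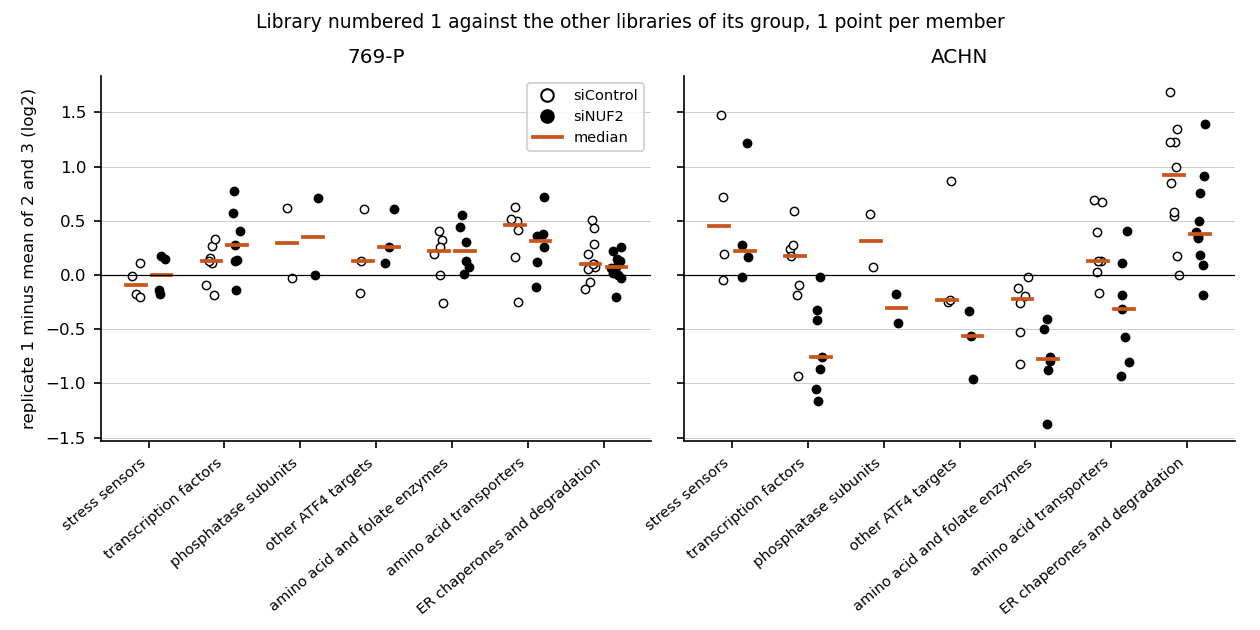
Library numbered 1 minus the mean of libraries 2 and 3 of its group on the log2 scale, with 1 point per gene, open for siControl and filled for siNUF2, and the median as an orange bar. In ACHN the ER genes, except SEL1L with siNUF2, lie above 0 (medians 0.92 and 0.37) and the enzymes below 0 (-0.22 and -0.77), while in 769-P all medians are between -0.09 and 0.46.

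Over all 12 libraries, with the mean of each group taken out, the 5 of 16574 genes whose levels were most like those of ATF4 were SLC7A11 (Pearson r 0.96), DDX21 (0.95), PIM3 (0.95), RRP15 (0.95) and AC087163.2 (0.95). Over the 10 libraries left without both ACHN libraries numbered 1 the values were 0.94, 0.98, 0.96, 0.94 and 0.91. The ranks of these genes were then 44, 1, 10, 39 and 97, so the order rested in part on those libraries. Of the other genes described here, CEBPG was at 0.90, ASNS at 0.88, MTHFD2 at 0.86, SHMT2 at 0.84, SLC7A1 at 0.84 and TRIB3 at 0.81, or 0.91, 0.81, 0.74, 0.86, 0.90 and 0.67 over the 10 libraries. PDIA4 (-0.74), HSP90B1 (-0.69) and MANF (-0.64) ran the other way, by values that were -0.72, -0.69 and -0.64 without those libraries. The same measure around HSPA5, a gene chosen after its values were seen, was 0.97 for MANF, 0.96 for CRELD2, 0.95 for HERPUD1 and 0.94 for SDF2L1, and 0.78, 0.92, 0.71 and 0.46 over the 10 libraries. For EIF2AK3 it was 0.85 over 12 libraries and -0.65 over 10, and for PHGDH -0.71 and 0.85, so that these 2 values rested on the libraries numbered 1. Libraries with the same number deviated together within a line, so the points are not independent, and these correlations are descriptions with no test.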

How the data were processed

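The authors filtered the reads with fastp, and the submitters' processing notes name HISAT2 2.0.5, featureCounts 1.5.0-p3 and hg38. The strand setting and gene lengths are not given in the sources used here, so reads shared by overlapping genes cannot be assigned. Of the DDIT3 exon bases 27.16% lie opposite MARS, which reached 83.5 FPKM, so the DDIT3 level is uncertain. Of the ATF5 exon bases 21.19% lie opposite NUP62, which reached 18.1 FPKM, so the ATF5 level is uncertain too. The authors deposited 1 FPKM value per gene and library. Low values were whole multiples of 1 read, within 0.05 reads, for 97.0% to 97.4% of those checked against GENCODE exon lengths, and gave the depth only, with medians of 31496988 (769-P siNUF2), 32810485 (769-P siControl), 35836834 (ACHN siNUF2) and 36568342 (ACHN siControl) reads. These depths are sums over genes. They differ from the library sizes recovered from the same steps, which were 28768675 to 38542660 fragments. FPKM were scaled by a trimmed mean of log ratios (30% of ratios and 5% of levels trimmed), genes with at least 0.5 FPKM in at least 3 of the libraries fitted were kept, and log2(FPKM + 0.1) was fitted with limma 3.58.1 in R 4.3.3 (lmFit, eBayes with a trend). Fold changes on this scale understate those of low genes. P-values were adjusted by Benjamini-Hochberg over all genes tested, with a threshold of 0.05 and no minimum fold. Each line was fitted alone, the lines were compared under siControl, and the interaction was fitted over 12 libraries; comparisons share control libraries. The fits were tested on simulated data.

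Groups and replicate numbers come from the labels. With group means taken out, libraries that carry the same number correlated at 0.190 to 0.360 between the siRNAs of 769-P and at 0.461 to 0.735 in ACHN, so the number was also fitted as a block. The genes and lists were chosen with earlier results of these data known. The text names in full up to 12 genes per comparison that passed with or without the block, by size of change, plus ATF4, DDIT3, XBP1, ASNS, HSPA5 and HERPUD1, and of other pathway genes the 3 with the largest change. SLC3A2, CHAC1 and SLC7A11 in ACHN, the genes of lists with few calls, and KRT8 were named after their values were seen. Alternatives were other scalings, pseudocounts and filters, the block, a common fit and each library left out. Promoter sequences and their starts are from RefSeq, and the coordinates of whole genes are from GENCODE. Python 3.11.15 was used for tables (pandas 2.3.3, NumPy 2.4.6) and plots (matplotlib 3.10.9).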

Additional observations from a re-analysis of the deposited data

Results flagged for a closer look

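For 7 of the 39 genes all 3 numbered pairs were higher with siNUF2 in 769-P and all 3 were lower in ACHN, which is why they are listed here. Of the 38 genes tested in both lines this is 18.4%, where 2.75% of 12931 genes moved that way, and the reverse pattern was seen in 0 of the 38 and in 2.85% of the 12931. The genes were chosen with earlier results of these data known, and several varied together over the libraries. Setting these shares side by side is thus not a test. The difference in response, 769-P minus ACHN on the log2 scale, was 0.27 for ATF4, 0.43 for ATF5, 0.62 for ASNS, 0.43 for PSAT1, 0.79 for SLC3A2, 0.63 for SLC1A5 and 0.36 for SLC38A2. The responses were 0.45 in 769-P and -0.34 in ACHN for SLC3A2, which pairs with the light chains of amino acid exchangers, and 0.40 and -0.24 for SLC1A5, the glutamine carrier. They were smaller for ATF4 (0.06 and -0.21). None of these 7 differences passed the interaction test, with limma, Benjamini-Hochberg adjusted p-values of 0.895 for SLC3A2 and 1.00 for the others, or of 0.0587 (ATF5) to 0.207 (ASNS) with the replicate block. The size of the ACHN values rested in part on the pair numbered 1, where SLC3A2 differed by -0.74, against -0.08 and -0.24 in the other pairs, and SLC1A5 by -0.71, against -0.01 and -0.02. The part of that pair in the difference was not tested beyond leaving it out.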

How the results depend on the processing

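Of the 39 genes, the count called after siNUF2 in 769-P was 6, and it was 19 with the replicate block, 2 with all 12 libraries in a common fit, 0 with no filter on low values, 5 with FPKM as deposited and 0 to 5 with 1 library left out. In ACHN the count was 0, and 2 with the block. The interaction count was 0 under every alternative run, and the count lower in 769-P under siControl was 29, and 26 to 30 under the alternatives, with gains and losses of single genes. Counting the 3 called higher without ACHN siControl library 1, 26 to 31 were called in all. That comparison showed no pairing across the lines (r -0.0564 to 0.0420), and its block gave 30. For single genes, 640 values kept direction and side of the threshold, 42 lost a call, 14 gained one and 25 changed sign, and the cause of these changes was not tested.

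The values that changed sign did so mostly when 1 library was left out. Over these fits the log2 fold change in 769-P ran from -0.014 to 0.15 for ATF4, -0.32 to 0.21 for DDIT3, -0.047 to 0.063 for XBP1 (and -0.0020 with FPKM as deposited) and -0.049 to 0.25 for ASNS. In ACHN it ran from -0.57 to 0.090 for ATF5, -0.63 to 0.11 for DDIT3, -0.47 to 0.022 for XBP1, -0.55 to 0.17 for HSPA5 and -0.44 to 0.19 for HERPUD1. The difference in response ran from -0.18 to 0.57 for DDIT3, -0.011 to 0.47 for XBP1 and -0.39 to 0.24 for HERPUD1, and HSPA5 under siControl from -0.28 to 0.42. Without both ACHN libraries numbered 1, an alternative added after seeing the data, DDIT3 was at 0.17 and HERPUD1 at 0.071 in ACHN, with differences in response of -0.24 and -0.28. The lowest read counts among the 39 genes were 30 in a library for SLC1A4 and 54 for ASNS.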
